A study of Homo sapiens with 24 samples.

Results

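The comparison set an Ewing sarcoma line with a knockout of SLFN11 against the line it was derived from, 24 h after both had received 2 Gy of gamma radiation. Its members were all 6 arrays, of 24 in the series, whose titles give the 2 Gy dose and the 24 h time point. The 3 parental arrays hold RNA from ES8, a human Ewing sarcoma cell line. The 3 knockout arrays hold RNA from ES8-1F2, a derivative of ES8 in which SLFN11 had been disrupted with CRISPR/Cas9. Both groups were grown in the same serum-containing medium and received the same dose, so this comparison alone does not separate a difference that the lines always had from a difference in how they responded to radiation. The remaining 18 arrays cover the same lines without irradiation, or at 4 h, with 3 arrays per group in 8 groups. The knockout is 1 derivative line, so the loss of SLFN11 and whatever else came with deriving that line cannot be told apart. The labels do not say that the 3 arrays of a group came from separate cultures, and p-values therefore reflect only how far these samples differed, a spread that may be technical.

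SLFN11 is a putative helicase that binds stalled replication forks under stress, blocks further replication and lowers the translation of certain proteins through cleavage of particular tRNAs. Its level is known to track the sensitivity of tumour cells to agents that damage DNA. Ewing sarcoma, a tumour driven by the fusion transcription factor EWSR1-FLI1, is known for high SLFN11, because the fusion activates the gene. Ionizing radiation breaks DNA and sets off checkpoint and p53 responses. Cells short of amino acids, or under other stress, run a transcriptional programme led by ATF4 that raises amino acid supply.

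Values are deposited log2 signals from expression arrays, and a difference is the mean of the knockout arrays minus the mean of the parental arrays on that scale, so that a difference of 1 is 2-fold. Of 24351 probe sets, 17709 carried 1 gene symbol and gave 17687 genes. Background was set on each array at the 95th percentile of 612 negative control probe sets and came to 3.47 to 3.65 over the 6 arrays. All 9 Ewing sarcoma markers measured, CD99 and NKX2-2 among them, were above background on all 6 arrays. For the 9 together, the log2 of the summed level was 11.68 to 11.78 in the parental line and 11.80 to 11.86 in the knockout, with 3 of the 9 called higher and 2 lower there. Of 14 epithelial markers, 8 were above background on all 3 parental arrays and 6 on all 3 knockout arrays, while 4 and 6 were above it on none. For 13 blood cell markers these counts were 5 and 5 on all arrays and 3 and 7 on none, and for 12 endothelial markers 8 and 7 on all and 3 and 4 on none. The log2 of their summed levels ran from 8.22 to 8.58 and 8.35 to 8.59 (parental, then knockout) for epithelial markers, 8.39 to 8.79 and 8.29 to 8.46 for blood and 8.59 to 9.04 and 8.97 to 9.10 for endothelium. Only KRT18, a keratin of simple epithelia, at -0.74 (adjusted p = 0.0138 in limma), and EGFL7, a secreted endothelial protein, at 0.42 (adjusted p = 0.0179 in limma), were called among those 39 genes. KRT18 lost the call without parental array 1 or knockout array 3, and EGFL7 without parental array 1 or 3 or knockout array 1 or 3. In such bulk RNA, fewer cells of a type and less RNA per cell cannot be told apart. Parental array 2, counted by the replicate number in the titles, had the narrowest distribution of the 6 (interquartile range of all genes 3.34, against 3.42 to 3.57 on the others).

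SLFN11 was lower in the knockout line. Its log2 signal was 8.63, 8.34 and 8.30 on parental arrays 1, 2 and 3 and 6.97, 7.03 and 6.74 on knockout arrays 1, 2 and 3. The groups did not overlap, and every knockout array still lay well above background. The difference was -1.51 (SE 0.13, 95% confidence interval -1.77 to -1.24), with an adjusted p of 1.54e-10 in limma. A transcript can persist when its reading frame is broken, and where the probe set lies relative to the edit was not analysed here, so the signal checks the direction of the labels and not the completeness of the knockout. Among the other 5 Schlafen genes, none was called at an adjusted p below 0.05 in limma, and SLFN5 and SLFN12L had an unadjusted p below 0.05. SLFN5, a nuclear member of the family, read 5.50, 5.30 and 6.25 in the parental line and 5.17, 4.84 and 5.58 in the knockout. These values overlapped, with a difference of -0.49 and an adjusted p of 0.19 in limma that fell to 0.0306 when same-numbered arrays were treated as pairs. SLFN13 and SLFN14 were above background on none of the 6 arrays, and SLFN12 and SLFN12L on 1 of 3 knockout arrays and no parental array each.

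Between the lines, 1112 genes were higher and 1005 lower in the knockout at an adjusted p below 0.05 in limma, or 6.29% and 5.68% of all genes tested. At least a 2-fold difference was seen for 210 of the higher genes (1.19% of all) and 201 of the lower genes (1.14%). The median difference over all genes was -0.01, and the median 95% confidence interval of a gene reached 0.31 to either side. That width depends on having 3 arrays a group and on the spread estimated over all 24 arrays. Values of the lines did not overlap for 2052 of the 2117 called genes, where 25.7% of all genes had values that did not overlap. These counts are from a fit that does not pair the arrays. With the arrays paired by number, 1472 genes were higher and 1317 lower, and 2093 of the 2117 were among them. Of the 2117, 1190 were called in each of the 6 fits that left out 1 array. The genes described here are, with stated exceptions, those that kept their call in each of these fits.

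The gene with the largest rise in the knockout was FLT1, the VEGF receptor 1. It read 2.69, 2.93 and 2.94 in the parental line and 6.78, 6.26 and 5.72 in the knockout. All parental arrays were at background, so the difference is given as a bound, at least 6.8-fold higher in the knockout (adjusted p = 9.83e-11 in limma). WFDC1, a secreted protein with a whey acidic protein domain, read 4.78, 4.06 and 3.82 against 7.45, 6.74 and 7.35, a difference of 2.96. CMTM7, a membrane protein of the chemokine-like factor family, read 5.98, 5.97 and 5.96 against 8.87, 8.79 and 8.89. All its arrays were well above background, and its difference of 2.88 (SE 0.12) had the lowest adjusted p among the 12 largest rises, 3.24e-18 in limma. The sphingosine 1-phosphate receptor S1PR1 was higher by 2.39 and the neuropeptide precursor NTS, which yields neurotensin, by 2.62. Regulators among the 12 were the homeobox factor HHEX (2.36) and the pituitary factor POU1F1 (2.20). CASP4, an inflammatory caspase that senses bacterial lipopolysaccharide, differed by 2.19 and the adhesion molecule ICAM2 by 2.22. FAM162B (2.93), the receptor GPR83 (2.82) and the adaptor SAMSN1 (2.31) complete the 12, and GPR83 was above background on only 1 parental array.

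The largest falls were in MBD3L4, MBD3L3 and MBD3L5, relatives of the methyl-CpG-binding protein MBD3, at -5.13, -4.84 and -4.61. MBD3L4 was above background on only 1 knockout array. MBD3L5 read 8.84, 9.06 and 9.02 in the parental line and 4.15, 4.37 and 4.55 in the knockout. These genes are near-identical copies in 1 cluster, and their signals cannot be assigned with certainty to 1 copy. SYCP1, a structural protein of the meiotic synaptonemal complex, read 6.76, 6.42 and 6.71 in the parental line and 2.14, 2.05 and 2.26 in the knockout, at background on all 3 knockout arrays and at least 8.25-fold lower. CYTL1, a secreted cytokine-like protein, was lower by at least 9.88-fold and the secreted protein PI15 by at least 4.7-fold. PTPRG, a tyrosine phosphatase of the cell surface, read 6.41, 6.21 and 6.32 against 2.88, 2.90 and 2.80, a fall of at least 6.63-fold. CRABP2, which carries retinoic acid to the nucleus, was lower by the log2 difference -3.31, and SCNN1G, a subunit of the epithelial sodium channel, by -3.09. The cadherin DCHS2 (-3.65), HSBP1L1 (-3.16) and the lysophosphatidic acid receptor LPAR3 (-3.01) complete this set. HSBP1L1 was above background on only 1 knockout array, and DCHS2 and LPAR3 on 2. Each of these 24 genes was called in each fit without 1 array.

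**Figure D1:**
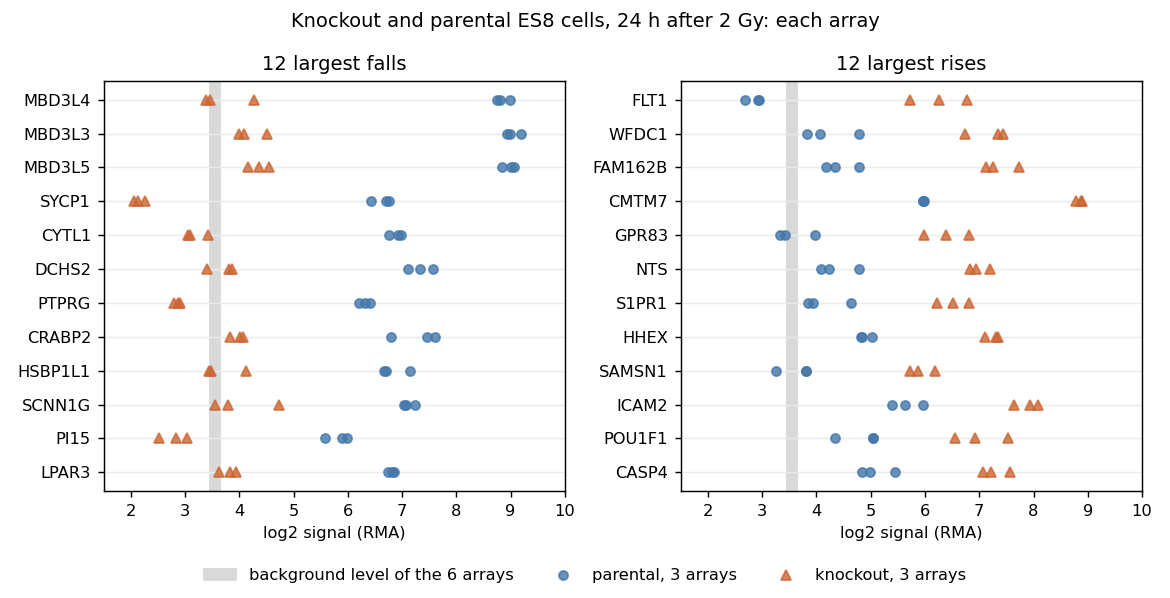
Log2 signal on each of the 6 arrays (horizontal axis) for the 12 genes with the largest rise and the 12 with the largest fall in the knockout (vertical axis), 24 h after 2 Gy; circles are parental arrays, triangles knockout arrays, and the grey band is the background of the 6 arrays. For each gene the 3 knockout values lie apart from the 3 parental values, and FLT1 is at background in the parental line as SYCP1, CYTL1, PTPRG and PI15 are in the knockout.

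Many genes of the amino acid response were lower in the knockout at this time point. In this response, kinases of the EIF2AK family phosphorylate the translation factor eIF2, ATF4 protein then accumulates, and ATF4 with partners such as CEBPG activates genes for amino acid synthesis, uptake and tRNA charging. Over the 5 lists on it, 25 of 68 genes measured were lower and 3 higher, against 5.68% and 6.29% of all genes. The median difference of the 68 genes was -0.28, where that of all genes was -0.01. Of the 25, 21 were lower in each fit without 1 array, and 30 were lower with the arrays paired. The cells without irradiation, measured on other arrays at 24 h, gave these 68 genes a median difference of -0.077.

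The promoters below are in capitals where their letters match TGATGNAA or its reverse complement, a motif of the kind ATF4 binds. ASNS and CHAC1 are shown as genes called lower in the knockout, and AARS1 and ATF3, picked after their values were seen, as genes of these lists that hold the motif and were not called (-0.29 and -0.30, adjusted p = 0.0809 and 0.499 in limma). Each sequence is the 250 bases before the start used for the gene, 5′ to 3′ on the gene's strand, from RefSeq on GRCh38.p14. Any other start of a gene was not searched. They lie at chr7:97872409-97872658 on the minus strand (ASNS), chr15:40953221-40953470 on the plus strand (CHAC1), chr16:70289507-70289756 on the minus strand (AARS1) and chr1:212565157-212565406 on the plus strand (ATF3).
ASNS: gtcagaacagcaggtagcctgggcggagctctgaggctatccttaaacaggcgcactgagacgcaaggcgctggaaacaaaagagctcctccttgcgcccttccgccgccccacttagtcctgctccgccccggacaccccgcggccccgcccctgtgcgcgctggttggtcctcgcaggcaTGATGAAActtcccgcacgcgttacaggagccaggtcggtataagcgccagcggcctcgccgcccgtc
CHAC1: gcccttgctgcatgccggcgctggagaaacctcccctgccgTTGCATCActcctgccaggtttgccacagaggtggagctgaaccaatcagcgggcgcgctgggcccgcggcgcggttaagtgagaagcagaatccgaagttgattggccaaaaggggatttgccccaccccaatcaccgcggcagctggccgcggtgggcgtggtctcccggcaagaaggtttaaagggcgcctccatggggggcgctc
AARS1: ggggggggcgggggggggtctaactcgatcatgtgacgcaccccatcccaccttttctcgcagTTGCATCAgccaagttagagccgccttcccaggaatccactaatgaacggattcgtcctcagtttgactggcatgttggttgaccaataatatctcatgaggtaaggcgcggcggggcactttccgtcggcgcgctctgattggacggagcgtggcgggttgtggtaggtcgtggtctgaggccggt
ATF3: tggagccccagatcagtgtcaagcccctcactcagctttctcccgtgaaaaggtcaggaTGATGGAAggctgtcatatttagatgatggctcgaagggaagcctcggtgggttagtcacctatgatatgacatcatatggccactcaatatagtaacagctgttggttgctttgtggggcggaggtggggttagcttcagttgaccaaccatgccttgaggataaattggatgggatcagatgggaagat
The first capital lies 68 bases before the start in ASNS, 209 in CHAC1, 187 in AARS1 and 191 in ATF3. In windows from 250 bases before to 50 after the start, 15 of the 54 amino acid response genes with a promoter in the table held the motif (27.8%), against 359 of 14250 genes tested (2.52%). The share was 5 of 20 among those called lower (25%) and 10 of 34 among the others (29.4%). The lists were written as genes of the response led by ATF4, so their higher share than that of all genes is not a test. A match describes these letters only.

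ATF4 itself, the transcription factor that leads the programme, read 8.73, 8.84 and 8.68 in the parental line and 8.35, 8.39 and 8.28 in the knockout. Its groups did not overlap, and the difference was -0.41 (SE 0.090, adjusted p = 0.00149 in limma). The pseudokinase TRIB3, an ATF4 target that feeds back on the pathway, read 6.66, 6.59 and 6.11 against 4.68, 5.18 and 4.18. With a difference of -1.78 it was the lowest of the 15 regulators measured. DDIT3, which encodes the stress factor CHOP, read 5.42, 5.73 and 5.77 against 3.80, 4.68 and 4.39, a difference of -1.35 (SE 0.21, adjusted p = 1.37e-05 in limma). CEBPG, a bZIP partner of ATF4, differed by -0.49. The 3 regulators that were higher were kinases of eIF2, namely EIF2AK3 (PERK, activated by unfolded protein) at 0.62, EIF2AK2 (PKR, activated by double-stranded RNA) at 0.40 and EIF2AK1 (activated by lack of haem) at 0.34. Without knockout array 1, EIF2AK3 was not called (0.48, adjusted p = 0.0709 in limma).

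Of 15 genes on the list of synthesis enzymes, 9 were lower and none higher, with a median of -0.43. The list also holds CHAC1, which is not a synthesis enzyme. ASNS, asparagine synthetase, read 9.85, 9.70 and 9.75 on the parental arrays and 8.15, 8.13 and 8.50 on the knockout arrays. The lowest parental value exceeded the highest knockout value by more than 1 log2 unit, and the difference was -1.51 (SE 0.13, adjusted p = 8.52e-11 in limma). CHAC1, which degrades glutathione, read 7.12, 6.95 and 7.14 against 5.60, 5.83 and 5.92, a difference of -1.29. The mitochondrial folate enzyme ALDH1L2 (-1.27) and cystathionine gamma-lyase CTH (-1.21), which makes cysteine, showed differences of like size. The list's lower count was 7 to 9 over the fits without 1 array.

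Transporters showed the same direction. Of 12 measured, 6 were lower in each fit without 1 array and none was higher, with a median of -0.36. The glycine transporter SLC6A9 read 7.80, 7.94 and 7.61 in the parental line and 6.90, 6.72 and 6.45 in the knockout, a difference of -1.09. SLC7A5 and SLC3A2, the light and heavy chains of a transporter for large neutral amino acids, differed by -1.09 and -0.79, and SLC43A1, another carrier of these amino acids, by -0.77. Of 12 tRNA synthetase genes and partners, 3 were lower, namely the tRNA exporter XPOT (-0.62), the seryl-tRNA synthetase SARS1 (-0.41) and the glycyl-tRNA synthetase GARS1 (-0.34). With the arrays paired, 5 of these 12 were lower. Among 14 stress effectors, NIBAN1, a stress-induced regulator of translation, was lower in each fit, at 5.43, 4.72 and 5.19 against 3.50, 3.57 and 3.22 (-1.69). NIBAN1 was above background on only 1 knockout array. VEGFA and EIF4EBP1 were called with all arrays, at -0.40 and -0.29, and the list's count fell from 3 to 1 without knockout array 1 or without parental array 2. Chaperones and enzymes of the endoplasmic reticulum, which serve the other branches of the unfolded protein response, gave 0 of 22 called in limma, with differences from -0.16 to 0.53 and 5 of 22 at an unadjusted p below 0.05. With the arrays paired 2 of them were higher, and 1 without knockout array 3 or parental array 2 or 3.

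**Figure D2:**
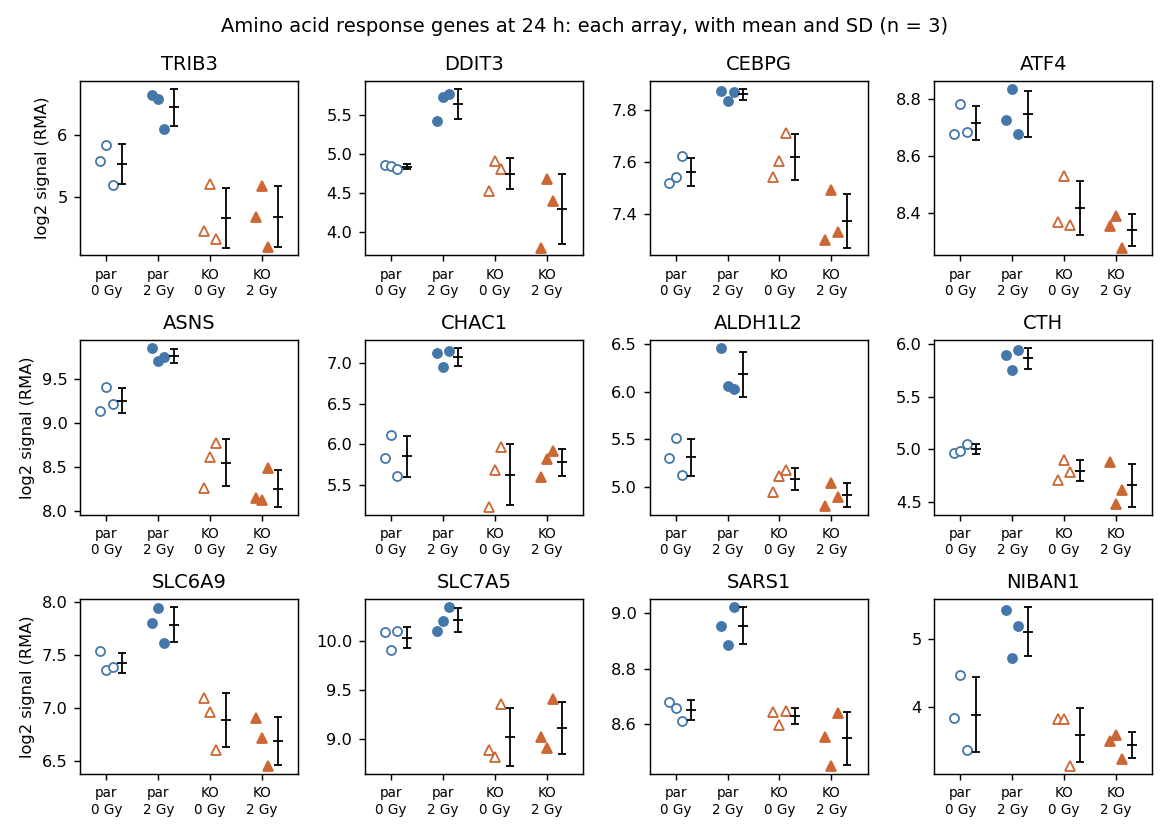
Log2 signal on each array (vertical axis) for genes of the amino acid response in 4 groups of 3 arrays (horizontal axis), both lines at 0 Gy and at 2 Gy, all at 24 h; coloured points are arrays, and black marks with bars are the mean and SD. After 2 Gy the parental arrays of ASNS (9.70 to 9.85) lie above the knockout arrays (8.13 to 8.50).

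Among 14 AP-1 and CREB genes, 1 was higher and 2 lower (7.14% and 14.3%, against 6.29% and 5.68% of all genes). JUN and CREB5 were lower in each fit. CREB5, a CREB family factor that pairs with JUN, read 7.70, 7.78 and 7.42 in the parental line and 6.14, 5.92 and 6.34 in the knockout. The 2 ranges lay more than 1 log2 unit apart, with a difference of -1.50 (SE 0.18, adjusted p = 1.53e-07 in limma). JUN, the core AP-1 subunit, read 5.29, 5.82 and 5.24 against 4.38, 3.38 and 4.36, and the difference was -1.41. No JUN value of the knockout reached the parental range, and knockout array 2, the lowest, was not above background. FOSL1, another AP-1 subunit, was higher in the knockout (0.58, adjusted p = 0.0241 in limma) with all arrays but not without knockout array 3, parental array 1 or parental array 3.

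ERK signalling induces immediate early genes and its own phosphatases. Of 26 such genes, 5 were higher (19.2%) and 1 lower (3.85%). DUSP6, a phosphatase of ERK, read 3.73, 3.67 and 4.45 in the parental line and 5.70, 5.70 and 5.48 in the knockout, a difference of 1.68 (SE 0.20, adjusted p = 1.24e-07 in limma). DUSP5, a nuclear ERK phosphatase, differed by 0.81 and the ETS factor ETV5 by 1.56. EGR1, an immediate early zinc finger factor, was higher by 1.06, but without parental array 2 it was not called (0.95, adjusted p = 0.055 in limma). SPRY1, a Sprouty inhibitor of receptor signalling, went the other way at -1.12. It was not called without parental array 1 (-0.75, adjusted p = 0.0585 in limma), the array with the highest parental value.

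Of 39 p53 pathway genes, 6 were higher and 2 lower (15.4% and 5.13%), with a median difference of 0.16. CDKN1A, the CDK inhibitor p21, read 4.18, 4.83 and 4.18 in the parental line and 5.85, 5.47 and 5.33 in the knockout. All knockout values were above all parental values, and the difference was 1.15 (SE 0.23, adjusted p = 0.000382 in limma). The death receptor FAS was higher by 1.10, CCNG1, cyclin G1, by 0.75 and CYFIP2, a p53 target that regulates actin, by 1.11. Without radiation at 24 h, CDKN1A (0.89), FAS (1.24), CCNG1 (0.66) and CYFIP2 (0.84) were called higher too. The median of the list was 0.083 there. The p53 inhibitor MDM4 (-0.36) and the nuclease AEN (-0.36) were lower with all arrays, and both lost the call without knockout array 1, parental array 2 or parental array 3, where the list held no lower gene. It held 1 without parental array 1 or knockout array 3. In the BCL2 family, 1 of 18 genes was called (5.56% higher and 0% lower), below the 6.29% and 5.68% of all genes. BCL2L11, the death-promoting BH3 protein BIM, was higher at 0.78.

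Mitosis genes gave 10 higher and 2 lower of 62 (16.1% and 3.23%), with a median of 0.10. KIF11, the motor that separates spindle poles, averaged 8.23 ± 0.19 (SD, n = 3) in the parental line and 8.99 ± 0.046 in the knockout, with no overlap and a difference of 0.75. SGO1, which protects sister chromatid cohesion, differed by 0.63 and the midbody motor KIF20B by 0.47. The list's higher count was 6 without parental array 2 and 16 with the arrays paired, and neither of its lower genes, CDC25B and CENPE, was called without knockout array 3, while 1 was called without knockout array 2 or parental array 1 or 3. In the replication and nucleotide synthesis list, 6 of 55 genes were higher and 4 lower (10.9% and 7.27%, against 6.29% and 5.68% of all genes). DSCC1, of a complex that loads the PCNA clamp, read 7.53, 7.02 and 7.43 against 8.81, 8.73 and 8.87 (1.47), and thymidylate synthase TYMS differed by 0.46. PCNA, the clamp itself, was lower by the log2 difference -0.40. The higher count was 3 without parental array 2, and the lower count was 1 without knockout array 1 and 2 without parental array 1 or 3.

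Shares called among histone and repair genes differed by list, where 6.29% of all genes were higher and 5.68% lower. The higher and lower shares were 4.08% and 0% for replication-dependent histones and 2.94% and 0% for end joining and checkpoint genes. Histone genes with polyadenylated transcripts had 12.5% and 0%, and homologous recombination and Fanconi genes 2.94% and 8.82%. Of 49 replication-dependent histone genes, 2 were higher, H2BC5 (0.50) and H2AC6 (0.46). That count was 6 with the arrays paired, 4 without parental array 1, 3 without knockout array 3, 1 without parental array 2 and 0 without knockout array 1 or parental array 3. Of 8 histone genes with polyadenylated transcripts, H2AJ was higher (0.45, adjusted p = 0.0445 in limma), called in 1 of the 6 fits without 1 array. Homologous recombination and Fanconi genes gave 1 higher and 3 lower of 34. NBN, the nibrin subunit of the complex that senses DNA breaks, was lower by the log2 difference -0.56, read as 6.48, 6.13 and 6.50 against 5.73, 5.76 and 5.94. The lower count was 1 without knockout array 2, and the higher gene, RAD51AP1 (0.48), lost its call without parental array 2. Among 34 end joining and checkpoint genes, SHLD2, of the shieldin complex, was higher (0.49), but not without knockout array 3 or parental array 2, and 2 genes of the list were higher without knockout array 2 or parental array 3.

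Interferon-stimulated and nucleic acid sensing genes were called in both directions, 5 higher and 2 lower of 46 (10.9% and 4.35%), and 12 of the 46 were above background in neither line. DTX3L and PARP9, partners in a complex that modifies proteins at DNA breaks, are neighbours that share a promoter region. PARP9 read 3.24, 3.49 and 3.71 in the parental line and 4.65, 4.15 and 4.31 in the knockout (0.89), and DTX3L, at background on all parental arrays, was at least 1.14-fold higher. IFI44L, an interferon-induced protein, was lower (-1.08), as was MAVS, the mitochondrial adaptor of RNA sensing (-0.61). Without knockout array 1, 2 genes of the list were higher. ERAP1, which trims peptides for MHC class I, was higher at 0.64. It was the only call among 19 antigen presentation genes (5.26% higher, where 6.29% of all genes were). With the arrays paired, 3 of the 19 were higher. Among 27 NF-kB and cytokine genes, CSF1 was higher (0.43, adjusted p = 0.0319 in limma), and lost the call without any 1 of the knockout arrays or without parental array 2.

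Targets of the Ewing fusion differed often and in both directions. Of 37 genes that EWSR1-FLI1 activates, 11 were higher and 11 lower (29.7% each), with a median difference of -0.01. PPP1R1A, an inhibitor of protein phosphatase 1, read 7.68, 8.04 and 7.91 in the parental line and 5.43, 5.57 and 5.24 in the knockout. These ranges lay more than 2 log2 units apart, for a difference of -2.46 (SE 0.14, adjusted p = 1.02e-14 in limma). The telomerase gene TERT was lower by the log2 difference -1.27 and IL1RAP, a coreceptor of interleukin 1, by -0.89. In the same list the growth factors PDGFC (0.97) and IGF1 (0.94), the lipase LIPI (0.85) and the kinase PRKCB (0.84) were higher. Without knockout array 1, or without parental array 2, 7 genes of the list were higher.

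Of 30 genes that the fusion represses, 8 were higher and 3 lower (26.7% and 10.0%), with a median of 0.25. TGFBR2, the TGF-beta receptor that Ewing sarcoma cells silence, read 4.56, 4.99 and 4.65 against 6.36, 6.56 and 6.40, a difference of 1.71 (SE 0.17, adjusted p = 5.02e-09 in limma). ACTA2, smooth muscle actin, differed by 1.51, and the matrix protein TNC, at background on all parental arrays, was at least 1.08-fold higher. LOX, lysyl oxidase, which crosslinks collagen, read 6.48, 6.40 and 6.63 against 3.95, 3.93 and 3.80 and was lower by the log2 difference -2.61. S100A4, a calcium-binding protein tied to migration, was also lower (-0.99). The higher count was 5 without parental array 3.

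Collagens and matrix genes gave 11 higher and 7 lower of 53 (20.8% and 13.2%). FBN1, fibrillin 1, read 4.35, 4.26 and 4.07 in the parental line and 6.19, 5.47 and 5.68 in the knockout, a difference of 1.55. The basement membrane protein NID1 (1.20), the collagen COL5A1 (1.00) and the gelatinase MMP2 (0.92) were higher too. SERPINF1, the antiangiogenic factor PEDF, read 9.71, 9.66 and 9.61 against 7.13, 6.63 and 6.57 (-2.88). The membrane protease MMP16 was lower by the log2 difference -1.83, and lumican, LUM, was at background on the knockout arrays and at least 1.27-fold lower. The 7 lower genes of this list were called in each fit without 1 array, while the higher count was 7 without knockout array 1.

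Of 34 contractile and adhesion genes, 3 were higher and 5 lower (8.82% and 14.7%, against 6.29% and 5.68% of all genes). CDH11, a mesenchymal cadherin, read 7.38, 7.86 and 7.44 against 5.42, 5.21 and 4.93 and was lower by the log2 difference -2.37, and the mesenchymal factor TWIST1 was lower by -0.95. The integrin subunit ITGB5 (0.73) and the filament protein VIM (0.37) were higher. The lower count was 3 without knockout array 2 or parental array 1 and 2 without parental array 3. Neural genes gave 6 higher and 6 lower of 33 (18.2% each). Besides NTS, the granule protein CHGA (1.58) and the glutamate receptor GRIK2 (1.26) were higher. The neurofilament NEFH (-1.61) and the neuronal enolase ENO2 (-0.90) were lower, and the microtubule protein DCX, at background on the knockout arrays, was at least 1.92-fold lower.

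Growth factor and guidance receptors and ligands gave 13 higher and 6 lower of 60 (21.7% and 10.0%). Besides FLT1 and S1PR1, the fibroblast growth factor receptor FGFR2 was higher, at 5.10 to 5.54 on the parental arrays and 6.73 to 7.26 on the knockout arrays (1.67). The guidance ligand SEMA3C read 5.99, 5.99 and 5.89 against 3.17, 3.54 and 3.06 and was lower by the log2 difference -2.70. SEMA3C was above background on only 1 knockout array. The neurotrophin receptor NGFR was lower at -0.95. Of 42 TGF-beta, BMP and WNT genes, 7 were higher and 6 lower (16.7% and 14.3%). The ligand BMP7 was higher (0.77). The WNT inhibitor APCDD1 (-1.03), the ligand BMP5 (-0.85) and the WNT receptor FZD3 (-0.67) were lower, and the coreceptor TGFBR3 was at least 1.7-fold lower. The higher count was 4 without parental array 1, and the lower count was 4 without parental array 2.

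HOX genes, which set position along the body axis, differed in 11 of 22 cases, 5 higher and 6 lower (22.7% and 27.3%). HOXA2, of the anterior part of its cluster, was higher at 1.09 and HOXD10 at 0.91. HOXD13 read 8.54, 8.43 and 8.40 against 7.57, 7.39 and 7.67 (-0.91), and HOXC8 was lower at -0.77. The higher count was 2 without knockout array 2 or parental array 2 and 3 without knockout array 1, knockout array 3 or parental array 3.

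MYC, the transcription factor that drives growth, read 10.38, 10.45 and 10.27 in the parental line and 9.03, 9.02 and 9.44 in the knockout. All knockout values were below all parental values, and the difference was -1.20 (SE 0.11, adjusted p = 1.01e-09 in limma). Of 22 genes of the MYC and MAX network, 5 were lower (22.7%) and none higher. Besides MYC they included MXI1, a MAX partner that opposes MYC (-0.51), and the cell cycle kinase CDK4 (-0.30). The lower count was 8 with the arrays paired, when 1 gene was also higher, and 3 without knockout array 1 or 2 or any 1 of the parental arrays.

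In cholesterol and fatty acid synthesis, 6 of 25 genes were higher (24.0%) and none lower. SQLE, squalene epoxidase, averaged 9.10 ± 0.15 (SD, n = 3) against 9.99 ± 0.049, with no overlap and a difference of 0.89. ACAT2, an acetyl-CoA acetyltransferase, differed by 0.63 and the sterol demethylation enzyme MSMO1 by 0.46. The hypoxia and glycolysis list gave 5 higher and 6 lower of 32 (15.6% and 18.8%). Its higher members included hexokinase HK1, at 6.45, 5.90 and 5.80 against 7.46, 7.54 and 7.43 (1.43), the vasodilator peptide ADM (1.05) and the glucose transporter SLC2A3 (0.97). Both phosphofructokinase genes called, PFKM (-0.62) and PFKP (-0.59), were lower, so the members of this list do not share a direction.

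Respiratory chain subunits gave 1 higher and 1 lower of 49 (2.04% each, below the 6.29% and 5.68% of all genes). NDUFB9, of complex I, was higher (0.85) and COX6C, of complex IV, lower (-0.45), while 4 were higher and 2 lower with the arrays paired. Without parental array 1, 2 were higher, and without knockout array 3, 2 were lower. Of 18 NRF2 and glutathione genes, 2 were higher and 1 lower (11.1% and 5.56%, the latter near the share of all genes). The lipid peroxide reductase GPX4 (0.49) and malic enzyme ME1 (0.47) were higher in each fit, and TKT was lower (-0.26, adjusted p = 0.0434 in limma) in 1 of the 6 fits without 1 array. With the arrays paired, 4 genes of this list were higher and 3 lower.

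**Figure D3:**
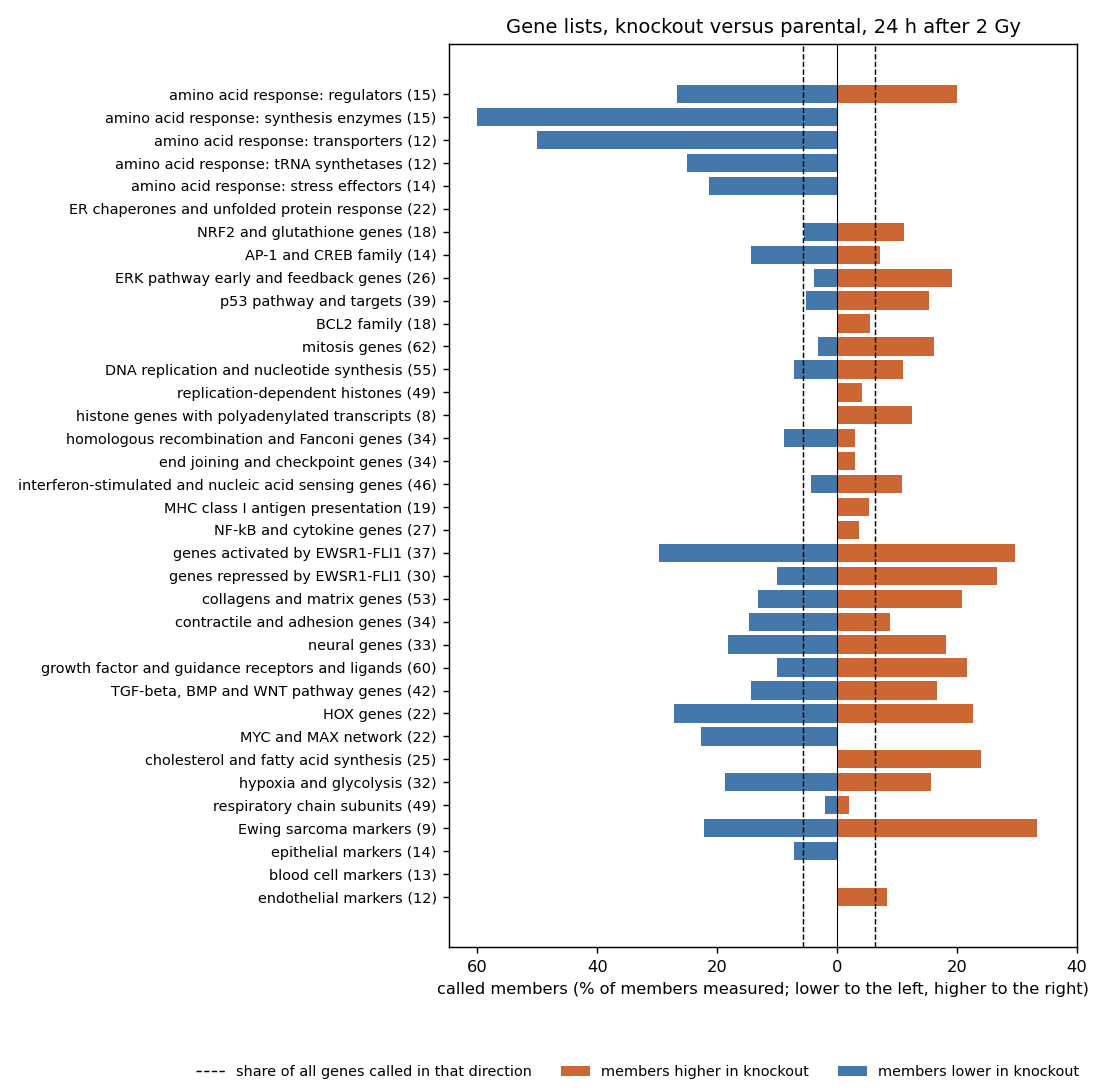
Share of the measured genes of each list (horizontal axis, percent) called higher (bars to the right) or lower (bars to the left) in the knockout 24 h after 2 Gy, with 1 list per row and its size in brackets; dashed lines mark the shares over all genes tested, 6.29% higher and 5.68% lower. The lists of synthesis enzymes (9 of 15 lower, with CHAC1 counted) and transporters (6 of 12 lower) of the amino acid response have lower genes only. Fusion targets, HOX genes and matrix genes have both.

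The lines were also compared without radiation, on arrays of their own at 24 h, to see which differences were called there too. At 0 Gy, 1145 genes were higher (6.47%) and 901 lower (5.09%). Of the 1112 genes higher after 2 Gy, 803 were also called higher there (72.2% of one list and 70.1% of the other), and of the 1005 lower genes 630 were (62.7% and 69.9%). No gene called in both had opposite signs. Of the 1112 higher genes 1098 had the same sign at 0 Gy, with a median difference of 0.57 there and 0.62 after 2 Gy. Of the 1005 lower genes 981 did, with medians of -0.49 and -0.62. These genes were selected by their call after 2 Gy, and one not called at 0 Gy is not shown to lack the difference. The comparison at 4 h after 2 Gy called 813 of the higher genes (73.1%) and 629 of the lower ones (62.6%), where 6.87% of all genes were higher and 5.13% lower, with 1 opposite call. SLFN11 differed by -1.38 at 0 Gy, CMTM7 by 2.99, FLT1 by 3.20, PPP1R1A by -2.33 and MYC by -1.26, each close to its value after 2 Gy. These comparisons share the lines and the estimate of the spread, but no array.

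Several genes of the amino acid response and AP-1 families had smaller line differences without radiation. CHAC1 at 0 Gy read 5.83, 6.12 and 5.62 in the parental line and 5.24, 5.68 and 5.97 in the knockout, values that overlap, for a difference of -0.22 (adjusted p = 0.49 in limma). DDIT3 differed by -0.090 at 0 Gy, NIBAN1 by -0.30, CREB5 by -0.32 and JUN by -0.039, none of them called. NIBAN1 at 0 Gy read 3.83, 4.46 and 3.35 in the parental line and 3.81, 3.81 and 3.12 in the knockout. These values lie near the background of those arrays, 3.49 to 3.79. Group means of JUN at 24 h were 4.26 ± 0.28 (SD, n = 3) at 0 Gy and 5.45 ± 0.32 at 2 Gy in the parental line, and 4.22 ± 0.27 and 4.04 ± 0.57 in the knockout. The parental mean of CREB5 was 6.03 ± 0.20 without and 7.63 ± 0.19 with radiation, where the knockout had 5.71 ± 0.086 and 6.13 ± 0.21. ASNS was already lower without radiation, by the log2 difference -0.70 (adjusted p = 0.000137 in limma), as were TRIB3 (-0.88), SLC7A5 (-1.01) and ATF4 (-0.30).

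The difference between these line differences, at 2 Gy minus at 0 Gy, was tested for every gene in 1 limma model. No gene passed an adjusted p below 0.05, the lowest being 0.295, and 560 genes (3.17%) had an unadjusted p below 0.05. The median 95% confidence interval of this quantity reached 0.44 to either side. Because genes described here had been called between the lines after 2 Gy, the gaps given next are selected to be wide. They were -1.07 for CHAC1, -1.26 for DDIT3, -1.39 for NIBAN1, -1.18 for CREB5 and -1.37 for JUN, with adjusted p from 0.295 (CHAC1 and CREB5) to 0.446 (NIBAN1) in limma. The gap of NIBAN1 rests on values near background, where differences are understated, in both lines at 0 Gy and in the knockout after 2 Gy. Against the line difference 4 h after 2 Gy, no gene passed either, the lowest adjusted p being 0.256, with 628 genes (3.55%) at an unadjusted p below 0.05.

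In the other direction, with the difference at 2 Gy above that at 0 Gy, the widest gaps among called genes were in CTDSPL and SPRY1. SPRY1 differed by -2.44 without radiation and by -1.12 with it. CTDSPL, a small phosphatase, differed by -2.42 and -1.06, and after 2 Gy its values overlapped, 6.19, 5.34 and 5.89 against 5.35, 4.95 and 3.95. CTDSPL was not called after 2 Gy without parental array 1 (-0.87, adjusted p = 0.074 in limma) or without knockout array 3 (-0.66, adjusted p = 0.143). CC2D2A, a protein of the ciliary transition zone, differed by 1.04 after 2 Gy and by 0.11 at 0 Gy, and TIAM2, an activator of RAC1, was at least 1.84-fold higher after 2 Gy, with a difference of 0.77 at 0 Gy. PTPN21, a cytoplasmic phosphatase, differed by 0.72 and -0.35, and its call after 2 Gy held without knockout array 1 or parental array 2 only. None of these 5 passed the test of the difference itself.

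**Figure D4:**
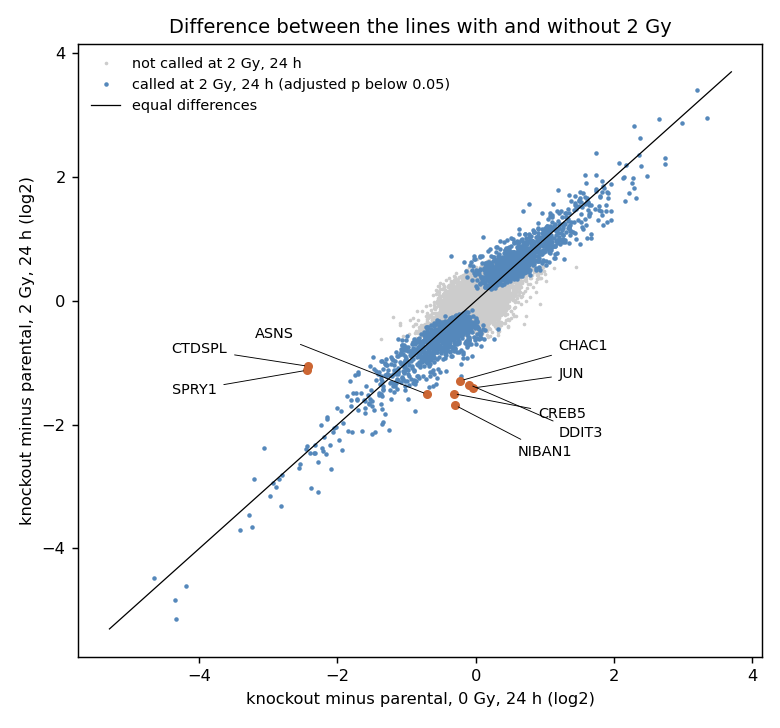
Knockout minus parental difference of each gene at 24 h without radiation (horizontal axis, log2) against that after 2 Gy (vertical axis, log2), from separate arrays; each point is a gene, blue where called after 2 Gy, and the line marks equal differences. CHAC1, DDIT3, NIBAN1, CREB5 and JUN lie below it and CTDSPL and SPRY1 above it.

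Some differences ran along chromosomes. On chromosome 10, 138 of 680 genes were higher (20.3%, against 6.29% of all genes), and on chromosome 20, 67 of 498 were lower (13.5%, against 5.68%). On chromosome 12, 104 of 929 were lower (11.2%) and on chromosome 3, 105 of 965 higher (10.9%). For each named gene, the median difference of the 10 nearest genes on either side with a mean signal above background is the local level. Around DSCC1 this median was 1.02, against 1.47 for DSCC1 itself, and around NDUFB9 it was 0.79, against 0.85. SQLE (0.56), KIF20B (0.51), SGO1 (0.53), KIF11 (0.46), FAS (0.44), ACTA2 (0.44), TGFBR2 (0.63), HHEX (0.46) and CMTM7 (0.48) also had neighbours that were higher in the knockout. Lower neighbours surrounded PCNA (-0.67), CDC25B (-0.61) and MAVS (-0.56), and also LPAR3 (-0.39), IFI44L (-0.39), HOXC8 (-0.38), CDK4 (-0.33) and NBN (-0.28). PCNA (-0.40), CDC25B (-0.49), CDK4 (-0.30) and KIF20B (0.47) themselves differed by less, in size, than their neighbours' medians. The local level was near 0 around ASNS, CHAC1, SLC7A5 (0.023), MYC (0.031) and FLT1 (0.056). It was -0.34 around TRIB3, -0.30 around DDIT3, -0.27 around CTH, -0.27 around JUN and -0.26 around XPOT. Copy number was not measured on these arrays, and its part in any of these differences was not tested.

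**Figure D5:**
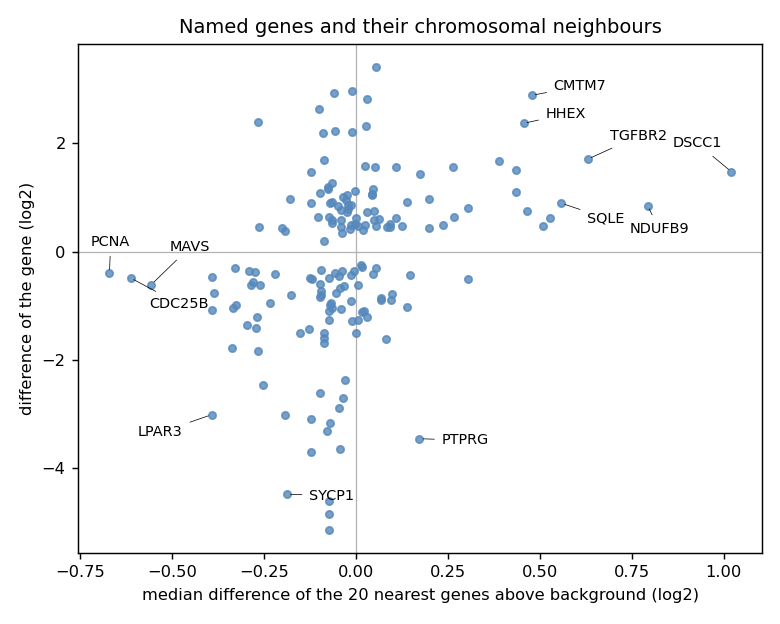
Knockout minus parental difference of each named gene 24 h after 2 Gy (vertical axis, log2) against the median difference of its neighbours on the chromosome (horizontal axis, log2); each point is 1 called gene and grey lines mark 0. Points for DSCC1 and NDUFB9, of the named genes, lie farthest to the right and the point for PCNA farthest to the left.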

How the data were processed

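RNA of both lines was hybridised to 24 whole-transcript expression arrays. The authors made the log2 signal of each probe set with RMA in Affymetrix Expression Console 1.1, per the submitters' processing notes, and deposited it. The sources used here do not say on which arrays RMA was run jointly. RMA subtracts background, quantile-normalizes and summarises probes, so changes shared by most genes are removed. All 17709 probe sets with 1 symbol in the platform annotation matched RefSeq by Entrez ID; for 20 genes with several, the brightest was kept. The 2903 control probe sets and 3739 others without a symbol were left out of the tests.

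limma 3.58.1 (R 4.3.3) was fitted to all 24 arrays with 8 group means and 1 moderated spread per gene, and p-values were adjusted by Benjamini-Hochberg over 17687 genes, with calls below 0.05. A gene above background on no array of 1 line is given as a bound: the brighter group's mean against the higher, on each array, of the background and the gene's own signal. Tested on simulated data for the line comparison at 2 Gy and 24 h (17687 genes), the fit recovered 35.8% of changes of 0.5, 97.0% of 1 and 100% of 2 log2 units, and for its difference from 0 Gy 20.9%, 79.1% and 98.5%. The simulation changed 67, 67 and 66 genes by these sizes, where the line comparison called 2117. Fewer changed genes make the adjustment stricter, so these shares need not hold for the line comparison itself.

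Members and gene lists were chosen with earlier results of these data known. The text names the Schlafen genes, the 12 largest rises and falls without overlap, at most 4 called members in each direction of a list, and up to 5 genes per direction with the widest gap between 2 Gy and 0 Gy. Among list members it describes those called in each fit without 1 array, and names others with the arrays they rest on or counts them. Same-numbered arrays of the lines deviated together from their group means (r = 0.17, 0.23 and 0.15 across genes for numbers 1, 2 and 3). A fit that pairs these 6 samples by number is therefore given beside the main fit. The pairing comes from the data, not the labels. Calls, counts and adjusted p-values are from the main limma fit, which does not pair arrays, unless pairing is stated. At 0 Gy and 24 h the same correlations were 0.070, 0.071 and 0.063, and at 4 h after 2 Gy 0.082, 0.16 and 0.33, so for comparisons that include those arrays the block is given only in the closing section. The fit with the number as a block used the 6 arrays. Other alternatives were the 6 arrays alone, a filter on dim genes, array weights, median-centred arrays, the mean of probe sets and leaving out each array. The motif TGATGNAA was searched on both strands of RefSeq promoters.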

Additional observations from a re-analysis of the deposited data

How the results depend on the processing

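Of the 170 named genes called between the lines, none changed sign in any alternative fit. Their calls held for 164 with the 6 arrays alone, 170 with the replicate block, 167 of the 167 kept by the filter on dim genes, 169 with array weights, 166 with median-centred arrays, 170 with the mean of probe sets and 142 to 151 without 1 array. Leaving out 1 array gave 786 to 1016 higher and 747 to 922 lower genes, 177 to 248 and 198 to 219 of them at least 2-fold, and a difference for SLFN11 of -1.57 to -1.41. With the replicate block, 1472 genes were higher and 1317 lower. Without 1 array, the difference between line differences at 2 Gy and 0 Gy had 0 genes called, and that between 24 h and 4 h 0 to 1 (1 without knockout array 2, MBD3L4, and 1 without knockout array 3, MSMO1). With a replicate block these tests called 3 genes (ASNS, CREB5 and H2BC10) and 6 genes (ASNS, CREB5, KCNH7, MBD3L5, MSMO1 and SGK1). Same-numbered arrays of the lines had r of 0.063 to 0.071 at 0 Gy and 0.082 to 0.33 at 4 h. At 4 h knockout array 1 with parental array 2 had 0.14. The block also joins same-numbered arrays across doses or times, and whether those deviated together was not examined. Without 1 array, SLFN13 differed by -0.034 to 0.11 and SLFN14 by -0.13 to 0.17, with the sign turned to -0.025 and -0.10 without parental array 3 and to -0.034 and -0.13 without knockout array 3; neither was called in any of these fits. SLFN5 was called with the block (-0.49) and with array weights (-0.66), and SLFN12L with array weights (0.47). The cause of these shifts was not tested. Median-centring moved all genes by 0.021 and the share of calls that were higher from 52.5% to 57.6%. With 3 arrays a group, changes of 0.5 log2 units were mostly missed on simulated data, in which fewer genes changed than were called between the lines. Near background a difference is understated.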
